A study of Homo sapiens with 6 samples.

Results

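The genes of the aminoacyl-tRNA synthetases were examined in Hep3B cells, a human hepatocellular carcinoma line. Members were taken by name and not by their values. The 40 genes reported, of 23228 in the deposited tables, comprise 21 genes of cytosolic enzymes, 16 genes of mitochondrial enzymes and 3 genes of associated proteins. The associated proteins are AIMP1 and AIMP2, scaffolds of the multisynthetase complex, and AARSD1, an editing protein that clears wrongly charged tRNA. Gene names follow the tables, which use older symbols such as AARS for AARS1 and TARSL2 for TARS3.

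RNA-seq had been performed on 3 control libraries from cells that carry a non-targeting shRNA and on 3 libraries from cells labelled as PELP1 knockdown (PELP1-KD), to ask which genes depend on PELP1, a scaffold protein and transcriptional coregulator. Both kinds of shRNA were delivered by lentivirus, followed by puromycin selection, and stable clones were pooled. The labels list 2 shRNAs against PELP1, and the sample titles name the first. The labels give no time point and do not say whether libraries of one group came from separate cultures, so p values measure the spread between these libraries, which may be technical.

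Each aminoacyl-tRNA synthetase joins 1 amino acid to the tRNAs that read its codons, and EPRS serves both glutamate and proline. Cytosolic and mitochondrial translation mostly use enzymes from separate nuclear genes, whereas GARS and KARS serve both compartments. Part of the cytosolic enzymes sit together in the multisynthetase complex. Many cytosolic synthetase genes are known targets of ATF4, the transcription factor of the amino acid and endoplasmic reticulum stress responses. ATF4 binds a composite element called CARE.

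Because these genes are grouped by their known regulators below, the sequence matches are shown first. RefSeq promoter windows (GRCh38.p14) of 300 bases, from 250 before to 50 after a start, were found for 33 of the 40 members. They were searched on both strands for CARE (TGATGNAA), which occurred in the windows of 8 members. The matches are printed 5′ to 3′ on the strand of the gene, with the matched bases in capitals and 30 bases in all, and a match on the opposite strand reads as its reverse complement. The first 7 belong to cytosolic genes of the ATF4 group and the last to a mitochondrial gene.
AARS (chr16:70289675-70289704, minus strand): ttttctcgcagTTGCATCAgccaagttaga
CARS (chr11:3057407-3057436, minus strand): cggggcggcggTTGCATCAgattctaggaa
GARS (chr7:30594834-30594863, plus strand): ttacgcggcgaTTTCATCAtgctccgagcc
IARS (chr9:92293692-92293721, minus strand): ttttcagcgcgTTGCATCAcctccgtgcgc
MARS (chr12:57488053-57488082, plus strand): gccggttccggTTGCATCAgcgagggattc
NARS (chr18:57621804-57621833, minus strand): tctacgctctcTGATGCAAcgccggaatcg
TARS (chr5:33440956-33440985, plus strand): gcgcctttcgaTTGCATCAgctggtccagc
YARS2 (chr12:32756076-32756105, minus strand): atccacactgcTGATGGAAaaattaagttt

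The motif began within 33 bases before the start in CARS, GARS, IARS and MARS. It lay just after the start in NARS and TARS, and 187 and 197 bases before it in AARS and YARS2. CARE was present in 8 of 45 windows of members (17.8%), compared with 3.62% of all 35116 windows. By gene, it was present in 24.2% of the 33 members and in 2.87% of the 11060 tested genes that had a window, which were 76.1% of those tested. Enrichment was not tested. A match is a string of letters and not a measured binding site.

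The palindromic E-box CACGTG, bound by MYC and related factors, occurred in the windows of 5 members. It is printed in the same way for these genes, of which CARS2, EARS2 and MARS2 are mitochondrial.
AIMP2 (chr7:6009478-6009507, plus strand): ccgggcgctggcCACGTGcaggtaggagcg
CARS2 (chr13:110706501-110706530, minus strand): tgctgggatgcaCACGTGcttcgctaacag
EARS2 (chr16:23557348-23557377, minus strand): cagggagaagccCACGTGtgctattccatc
IARS (chr9:92293866-92293895, minus strand): tggttcgttttcCACGTGgaggcgcaaaac
MARS2 (chr2:197705346-197705375, plus strand): atgcgcctctcaCACGTGctgtcagaacgc

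The E-box was present in 13.3% of the members' windows and in 7.26% of all windows. By gene the shares were closer, at 15.2% of members and 12.4% of tested genes with a window. None of the E-box matches overlapped a CARE match. IARS carried both, 186 and 13 bases before its start.

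Gene counts summed to 26758363 to 34456542 reads per library, and all 40 members passed the filter on low counts, along with 14537 genes in all. PELP1 itself, the targeted gene, had 4893, 4914 and 5102 normalized reads in control and 4421, 4825 and 4840 under the label PELP1-KD. Normalized reads are reads scaled to a common library size. The PELP1-KD mean was 94.5% of control, with a log2 fold change of −0.08 ± 0.041 (SE), and it was not called by edgeR (adjusted p = 0.101). When the replicate number was added as a block, the adjusted p was 0.0106, and without PELP1-KD replicate 3 it was 0.018. The lowest control library and the highest PELP1-KD library differed by less than the spread within PELP1-KD, so every direction below refers to libraries by their label. The study reported less PELP1 protein in Hep3B PELP1-KD cells by Western blot, and RNA-seq does not measure protein. All 10 hepatocyte markers were expressed, with a summed level of 28853 to 29293 reads per 1000000 reads (CPM) in control and 25430 to 25924 in PELP1-KD libraries. They moved apart, since AFP, HNF4A and FGB rose (to 154%, 118% and 112% of control) and the other 7 fell, among them ALB to 65.4%. Of the other cell types, the leukocyte markers PTPRC and CD3E, the endothelial markers CDH5, VWF and KDR and the fibroblast marker DCN had at most 5 reads in every library. The leukocyte marker CD14 had 163, 185 and 211 reads in control and 86, 78 and 88 in PELP1-KD libraries. It was called lower (log2 fold change −0.98, edgeR adjusted p = 3.31e-06). ITGAM, also a leukocyte marker, had 17 to 40 reads and the endothelial marker PECAM1 had 52 to 74, and neither was called. The summed levels were 5.45 to 7.44 CPM in control and 3.42 to 4.23 in PELP1-KD for 4 leukocyte markers, 2.00 to 2.32 and 1.93 to 2.15 for 4 endothelial markers, and 15.3 to 17.5 and 22.0 to 23.9 for 5 fibroblast or stellate markers. The last sum followed LUM, which rose to 189% of control, while PDGFRB fell to 22.7% and COL3A1 was not called. The part of these shifts in the results below was not tested. All libraries came from 1 cultured line. In bulk RNA, a changed mix of cells within the line and changed RNA per cell cannot be told apart.

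Hep3B cells held far more mRNA of the cytosolic than of the mitochondrial enzymes. Levels between genes are given as reads per kilobase of annotated exon and per 1000000 reads (RPKM), averaged over the 6 libraries. The 20 cytosolic genes had a median of 51.4 RPKM (range 3.19 to 137) and the 15 mitochondrial genes a median of 12.9 RPKM (4.22 to 68.0). VARS and VARS2 were left out because their exons are also placed on alternative haplotype sequences. Levels above 25 RPKM were seen for 16 of the 20 cytosolic genes but for 1 of the 15 mitochondrial genes, the isoleucine enzyme IARS2 at 68.0.

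The highest levels were those of KARS, the lysine enzyme, at 137 RPKM (125 to 148 over the libraries) and AARS, the alanine enzyme, at 123 (116 to 135). The ranges of KARS and AARS overlapped. Next came MARS at 98.7, GARS at 91.5, NARS at 86.4 and QARS at 86.0, for methionine, glycine, asparagine and glutamine. The lowest were TARSL2, a second cytosolic threonine enzyme, at 3.19 and PARS2, the mitochondrial proline enzyme, at 4.22. The plot of levels by role orders the 38 genes.

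**Figure D1:**
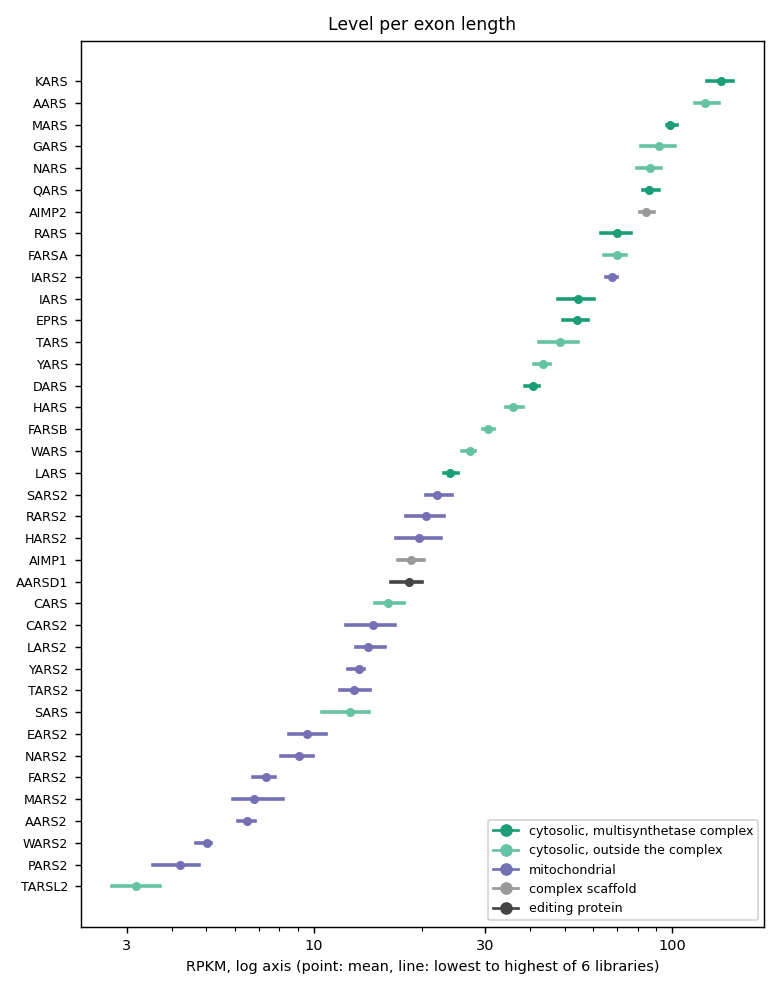
Level of 38 members in RPKM (x axis, logarithmic), 1 row per gene, coloured by role; points are means of 6 libraries and lines run from the lowest to the highest library. Mitochondrial enzymes fill most of the lower rows, with a median of 12.9 against 51.4 RPKM for cytosolic enzymes, and IARS2 stands among the cytosolic genes at 68.0.

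Between the groups, the summed level of the 20 cytosolic genes was 3371, 3384 and 3348 CPM in control and 3329, 3336 and 3326 CPM in PELP1-KD libraries. The PELP1-KD mean was 98.9% of control. For the 15 mitochondrial genes the sums were 678, 681 and 678 CPM in control and 663, 664 and 665 CPM in PELP1-KD libraries, or 97.8% of control. Both sums were lower in every PELP1-KD library than in any control library.

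Single members moved by more than the sums, and in both directions. Of the 40 members, 13 were called lower and 9 higher in PELP1-KD (edgeR, adjusted p below 0.05). These are 32.5% and 22.5% of the members. Of all 14537 tested genes, 26.8% were called lower and 26.8% higher, and 53.6% in either direction, compared with 55.0% of the members. The members' total was thus near that of the transcriptome. No member was both called and changed at least 2-fold, against 7.65% of all genes. The groups did not overlap for 28 members (70.0%) and for 58.8% of all genes. The median log2 fold change of the members was −0.04, and that of all genes was 0.00. Apart from VARS, described below, log2 fold changes ran from −0.36 to 0.35.

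**Figure D2:**
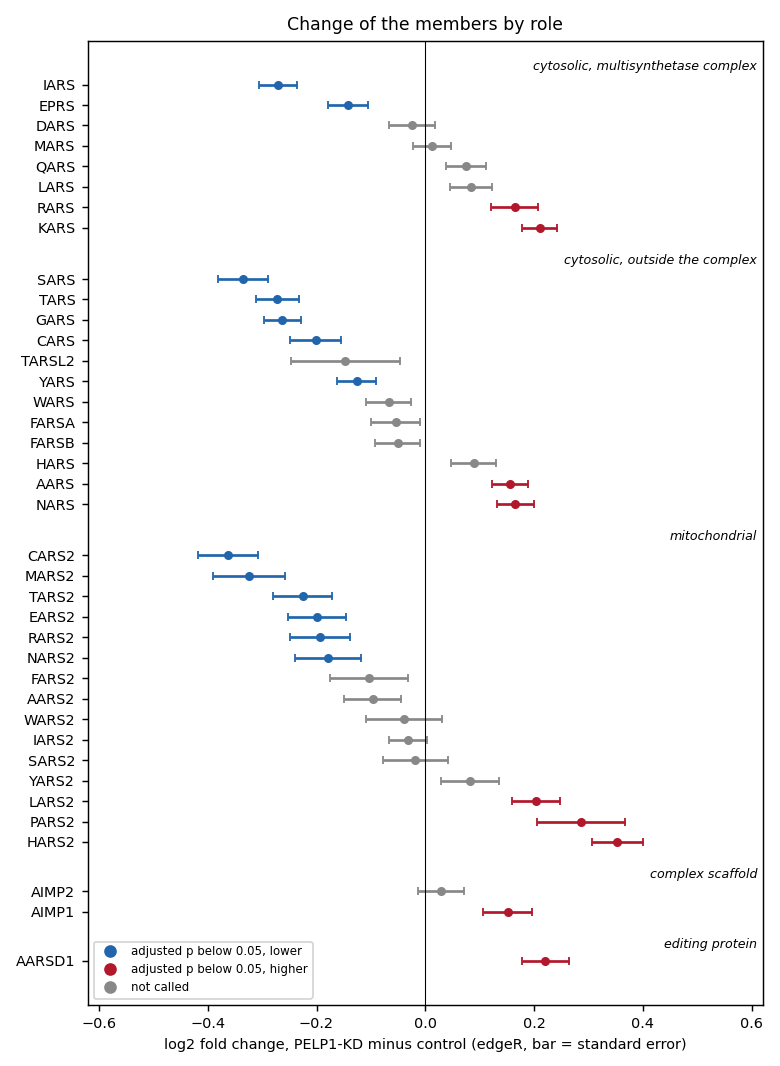
Log2 fold change of 38 members, PELP1-KD minus control (x axis), grouped by role; points are edgeR estimates, bars are standard errors, blue and red mark genes called lower and higher and grey marks genes not called. Called changes run from −0.36 for CARS2 to 0.35 for HARS2, and each enzyme group holds genes on both sides of 0.

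Among the cytosolic enzymes, those for serine, isoleucine, glycine, threonine, cysteine, glutamate with proline, and tyrosine fell, and those for lysine, asparagine, alanine and arginine rose. This gave 7 genes lower (33.3%) and 4 higher (19.0%) of 21, with a median log2 fold change of −0.05, compared with 26.8% of all genes in each direction.

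SARS, the serine enzyme (hg19 chr1:109756515-109780804), had 2726, 2808 and 2804 normalized reads in control and 2089, 2354 and 2175 in PELP1-KD libraries. Every PELP1-KD library was below every control library. The mean fell from 2779 ± 46.0 to 2206 ± 135 (SD, n = 3 each), or to 79.4% of control, with a log2 fold change of −0.33 ± 0.046 (SE) and an edgeR adjusted p of 4.33e-06.

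GARS, the glycine enzyme of both compartments (chr7:30634181-30673648), had 8480, 8781 and 8597 normalized reads in control and 7314, 7166 and 7068 in PELP1-KD libraries. The groups did not overlap, and the mean fell from 8619 ± 152 to 7183 ± 124 (SD), or 83.3% of control. The log2 fold change was −0.26 ± 0.034 (edgeR adjusted p = 1.82e-06).

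IARS, the isoleucine enzyme of the multisynthetase complex (chr9:94972625-95056038), had 8599, 8698 and 8347 normalized reads in control and 7221, 7173 and 6870 in PELP1-KD libraries. Again no library crossed between the groups. The mean fell from 8548 ± 181 to 7088 ± 190, or 82.9% of control, a log2 fold change of −0.27 ± 0.035 (edgeR adjusted p = 2.06e-06). The other cytosolic genes that fell were TARS (−0.27), CARS (−0.20), EPRS (−0.14) and YARS (−0.13), the enzymes for threonine, cysteine, glutamate with proline, and tyrosine, with edgeR adjusted p values between 8.49e-06 and 0.00671.

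KARS, the lysine enzyme of the complex and the most abundant member (chr16:75661622-75681585), had 8860, 8711 and 8620 normalized reads in control and 10023, 10168 and 10110 in PELP1-KD libraries. All PELP1-KD libraries were above all control libraries. The mean rose from 8730 ± 121 to 10100 ± 73.0, or 116% of control, a log2 fold change of 0.21 ± 0.032 (edgeR adjusted p = 1.5e-05).

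NARS, the asparagine enzyme (chr18:55267894-55289177), had 7465, 7372 and 7170 normalized reads in control and 8342, 8208 and 8129 in PELP1-KD libraries. It rose from 7336 ± 151 to 8226 ± 107 without overlap, or to 112% of control. Its log2 fold change was 0.17 ± 0.034 (edgeR adjusted p = 0.000367).

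AARS, the alanine enzyme (chr16:70286297-70323412), had 12149, 12285 and 12397 normalized reads in control and 13277, 13595 and 14149 in PELP1-KD libraries. The lowest PELP1-KD library exceeded the highest control library. The mean rose from 12277 ± 124 to 13674 ± 441, or 111% of control, a log2 fold change of 0.16 ± 0.033 (edgeR adjusted p = 0.000481). RARS, the arginine enzyme of the complex, rose by 0.16 (edgeR adjusted p = 0.00393).

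**Figure D3:**
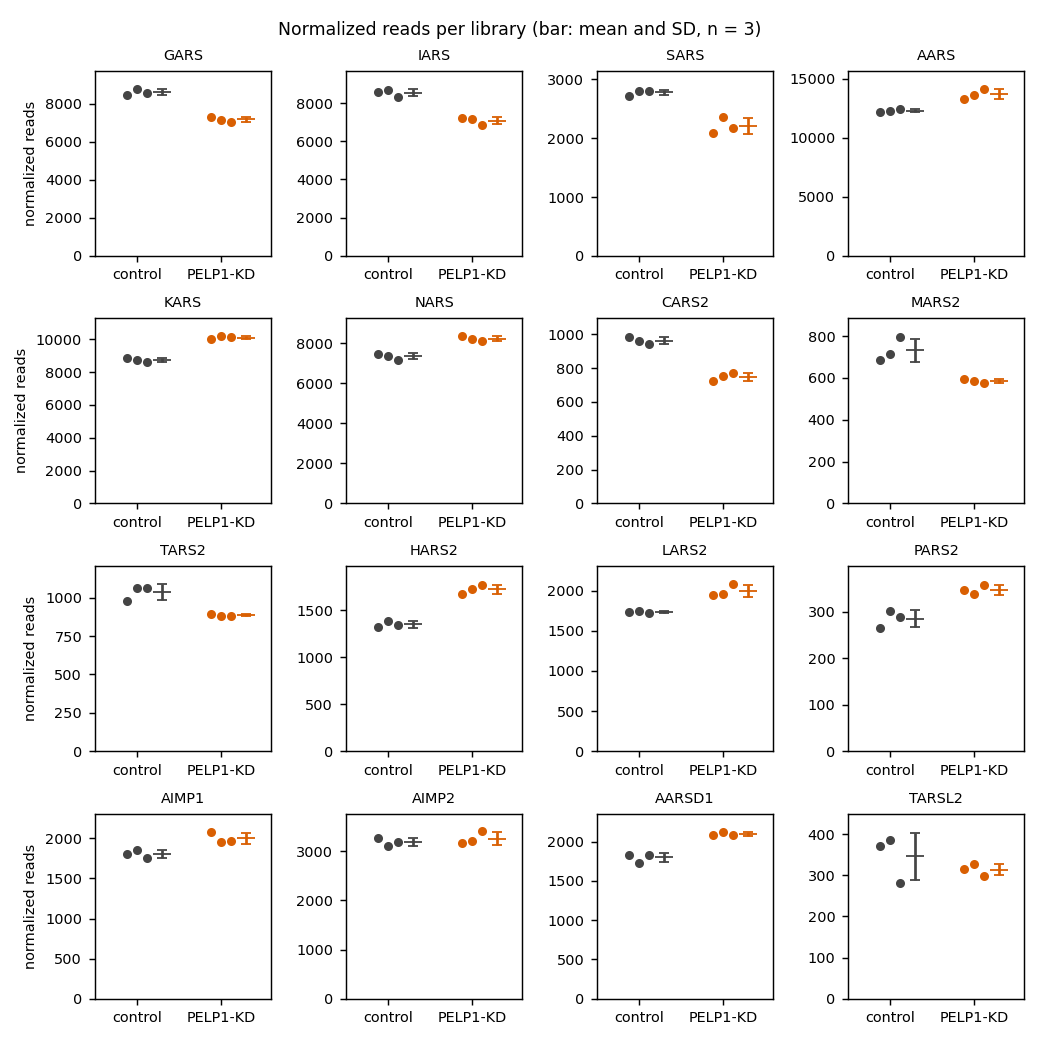
Normalized reads (y axis, from 0) of 16 members in each library, control in grey and PELP1-KD in orange; points are libraries and bars give the mean with its SD (n = 3). In 14 panels the groups stand apart (KARS, 8620 to 8860 against 10023 to 10168), whereas in AIMP2 and TARSL2 they overlap.

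The other cytosolic enzymes were not called. DARS, LARS, MARS and QARS had log2 fold changes of −0.02, 0.08, 0.01 and 0.07, and FARSA, FARSB, HARS and WARS had −0.05, −0.05, 0.09 and −0.07. With the replicate number as a block, LARS, QARS and HARS were also called higher by edgeR (adjusted p = 0.0143, 0.00995 and 0.0184, against 0.0707, 0.097 and 0.0831 without it), so that 7 cytosolic genes were called in each direction. LARS was called without PELP1-KD replicate 3 (adjusted p = 0.0212), as was FARSA, lower (0.0382), and QARS without PELP1-KD replicate 1 (0.0336).

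TARSL2 had 372, 385 and 281 normalized reads in control and 314, 327 and 299 in PELP1-KD libraries. Control replicate 3 was the lowest of all 6 libraries and the groups overlapped. The log2 fold change of −0.15 ± 0.10 was not called by edgeR (adjusted p = 0.233), and it depended on single control libraries. It was −0.27 without control replicate 3 (adjusted p = 0.0144), −0.06 without control replicate 2 (0.657) and −0.09 without control replicate 1 (0.545).

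VARS, the cytosolic valine enzyme, was the one member with a large difference and a poor measurement. It had 72, 334 and 554 normalized reads in control and 47, 44 and 57 in PELP1-KD libraries. The control libraries differed among themselves several-fold, and control replicate 1 was close to the PELP1-KD libraries. The log2 fold change of −2.68 ± 0.96 was not called by edgeR (adjusted p = 0.0799), but was called by DESeq2 (adjusted p = 0.00173) and by edgeR without control replicate 1 (−3.16, adjusted p = 4.16e-06). Without control replicate 3 it was −2.02 (edgeR adjusted p = 0.162). VARS is annotated on 6 alternative haplotype sequences besides chromosome 6. Counting shared out reads that matched several places, but only those with a mapping quality of at least 2. How many VARS reads this left out was not tested. Its level was 0.221 RPKM over 26617 annotated exon bases, against a median of 51.4 RPKM for the other 20 cytosolic genes. The fold change may therefore not measure all VARS mRNA. The 34 haplotype genes averaging at least 100 normalized reads had a median coefficient of variation of 15.9% among control libraries. It was 3.63% for 11735 other genes, not matched by read count, and 75.3% for VARS. The part of the haplotype sequences in its difference was not tested.

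Within the multisynthetase complex calls were made in both directions, in about the share of all genes (26.8% each way). Of its 8 enzymes IARS and EPRS fell, KARS and RARS rose and 4 were not called, with a median log2 fold change of 0.04. Of the 13 cytosolic genes outside the complex 5 fell and 2 rose, with a median of −0.13. The scaffold AIMP1 had 1800, 1855 and 1753 normalized reads in control and 2083, 1960 and 1964 in PELP1-KD libraries. It rose to 111% of control without overlap, a log2 fold change of 0.15 ± 0.045 (edgeR adjusted p = 0.00794).

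AIMP2 had 3275, 3116 and 3192 normalized reads in control and 3164, 3201 and 3411 in PELP1-KD libraries. These values overlapped, and the log2 fold change of 0.03 was not called (edgeR adjusted p = 0.582). EEF1E1, the third scaffold of the complex, fell by 0.16 on the log2 scale (edgeR adjusted p = 0.0154), a call that was lost without PELP1-KD replicate 2 (0.0532) or control replicate 1 (0.126). The editing protein AARSD1 had 1832, 1733 and 1835 normalized reads in control and 2084, 2124 and 2085 in PELP1-KD libraries. It rose to 117% of control, with a log2 fold change of 0.22 ± 0.043 (edgeR adjusted p = 0.000259) and no overlap between the groups.

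The 2 structural classes of synthetase were both split. Of 19 class I genes 8 fell and 2 rose, with a median log2 fold change of −0.07. EPRS, which serves 2 amino acids, was counted in class I only and is among the 8. Of 18 class II genes 5 fell and 5 rose, with a median of −0.05. Of all genes, 26.8% were called in each direction, and the difference between the classes was not tested.

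All 7 cytosolic genes that fell belong to the 11 cytosolic genes listed as known ATF4 targets, which are AARS, CARS, EPRS, GARS, IARS, MARS, NARS, SARS, TARS, WARS and YARS. In this group 7 fell, AARS and NARS rose, and MARS and WARS were not called, with a median log2 fold change of −0.14, where 26.8% of all genes fell and 26.8% rose. Of the 10 other cytosolic genes none was called lower by edgeR on all libraries, while KARS and RARS rose, and the median was 0.02. VARS was called lower by DESeq2 and by edgeR without control replicate 1. TARSL2 was called lower without control replicate 3 and FARSA without PELP1-KD replicate 3. LARS, QARS and HARS were called higher with the replicate block, and LARS and QARS also without single libraries. The list of ATF4 targets and the other lists below were drawn up with earlier results of these data known. The overlap with the genes that fell is therefore no independent evidence, and the difference between these groups was not tested. Of the 8 members with a CARE match, printed above, 4 fell, 2 rose and 2 were not called, with a median of −0.09, beside 26.8% of all genes in each direction. Thus AARS and NARS, which rose, carry the same 8 letters, TTGCATCA or its reverse complement, as CARS, IARS and TARS, which fell. Of the 5 members with an E-box, CARS2, EARS2, IARS and MARS2 fell and AIMP2 was not called, with a median of −0.27. These groups of 8 and 5 genes are small, and neither was tested against the 26.8% of all genes that fell.

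The wider ATF4 response was likewise divided. Of 20 genes listed, 12 fell and 7 rose, compared with 26.8% of all genes in each direction. ATF4 itself fell by 0.10 on the log2 scale (edgeR adjusted p = 0.0179), and its call was lost when any of 4 libraries (PELP1-KD replicates 1 and 2, control replicates 2 and 3) was omitted, with adjusted p values between 0.0563 and 0.0806. Its values ran from 12113 to 12675 normalized reads in control and from 11132 to 12069 in PELP1-KD libraries, without overlap.

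The genes of this list with the smallest p act in different steps. PSAT1, an enzyme of serine synthesis, fell to 67.6% of control (log2 fold change −0.57, edgeR adjusted p = 1.04e-10). CHAC1, which degrades glutathione, fell to 44.0% (−1.19, edgeR adjusted p = 1.11e-08). CEBPB, a transcription factor that partners ATF4, rose to 150% (0.58, edgeR adjusted p = 1.56e-10).

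Among the mitochondrial enzymes, those for cysteine, methionine, threonine, glutamate, arginine and asparagine fell, and those for histidine, proline and leucine rose. This gave 6 genes lower (37.5%) and 3 higher (18.8%) of 16, with a median log2 fold change of −0.07, compared with 26.8% of all genes in each direction.

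CARS2, the mitochondrial cysteine enzyme (chr13:111293757-111358480), had 982, 962 and 942 normalized reads in control and 722, 751 and 771 in PELP1-KD libraries. No library crossed between the groups. The mean fell from 962 ± 20.1 to 748 ± 24.8 (SD, n = 3 each), or 77.8% of control, a log2 fold change of −0.36 ± 0.055 (edgeR adjusted p = 1.5e-05).

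MARS2, the mitochondrial methionine enzyme (chr2:198570028-198573114), had 684, 717 and 794 normalized reads in control and 593, 586 and 574 in PELP1-KD libraries. The control libraries were more spread than the PELP1-KD libraries but lay above all of them. The mean fell from 731 ± 56.3 to 584 ± 9.32, or 79.9% of control, a log2 fold change of −0.32 ± 0.066 (edgeR adjusted p = 0.000388).

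TARS2, the mitochondrial threonine enzyme (chr1:150459920-150479749), had 979, 1065 and 1066 normalized reads in control and 896, 882 and 882 in PELP1-KD libraries. It fell from 1037 ± 50.0 to 887 ± 7.95 without overlap, or to 85.5% of control. Its log2 fold change was −0.23 ± 0.054 (edgeR adjusted p = 0.00168).

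Smaller decreases, in EARS2 (−0.20), RARS2 (−0.19) and NARS2 (−0.18), had edgeR adjusted p values between 0.00361 and 0.0195. The call of RARS2 was lost without control replicate 2 (adjusted p = 0.0521). That of NARS2 was lost without control replicate 1 (0.0718), control replicate 3 (0.0777) or PELP1-KD replicate 2 (0.106).

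HARS2, the mitochondrial histidine enzyme (chr5:140071018-140078890), had 1319, 1390 and 1339 normalized reads in control and 1671, 1732 and 1766 in PELP1-KD libraries. Every PELP1-KD library exceeded every control library. The mean rose from 1349 ± 36.4 to 1723 ± 48.1, or 128% of control, a log2 fold change of 0.35 ± 0.047 (edgeR adjusted p = 3e-06). HARS2 lies head to head with HARS, the cytosolic enzyme, with 46 bases between the annotated ends. HARS had a log2 fold change of 0.09 and was called under 1 of the 12 alternatives, the replicate block.

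LARS2, the mitochondrial leucine enzyme (chr3:45430075-45590328), had 1734, 1745 and 1726 normalized reads in control and 1951, 1961 and 2081 in PELP1-KD libraries. The control values were nearly equal and all below the PELP1-KD values. The mean rose from 1735 ± 9.86 to 1998 ± 72.4, or 115% of control, a log2 fold change of 0.20 ± 0.044 (edgeR adjusted p = 0.000652).

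PARS2, the mitochondrial proline enzyme (chr1:55222571-55230226), had 266, 301 and 289 normalized reads in control and 346, 338 and 358 in PELP1-KD libraries. It rose from 285 ± 17.9 to 347 ± 9.66 without overlap, or to 122% of control. The log2 fold change was 0.29 ± 0.081 (edgeR adjusted p = 0.00564), with a larger error than the more abundant members.

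AARS2, FARS2, IARS2, SARS2, WARS2, YARS2 and VARS2 were not called. Their log2 fold changes were −0.10, −0.10, −0.03, −0.02, −0.04, 0.08 and 0.00. VARS2, annotated on 5 alternative haplotype sequences, had 270, 223 and 183 normalized reads in control and 273, 187 and 215 in PELP1-KD libraries. These values overlapped, and its sign differed between normalizations.

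Mitochondria have no separate enzyme that joins glutamine to its tRNA. They charge their glutamine tRNA with glutamate and convert it with an amidotransferase. Of its 3 subunit genes tested, GATB (listed as PET112) rose by 0.19 (edgeR adjusted p = 0.00478), QRSL1 rose by 0.17 (0.00738), and GATC had −0.07 (0.222). EARS2, which supplies the glutamate, fell, as given above.

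For 15 amino acids the cytosolic and the mitochondrial enzyme could be set against each other within each library, with EPRS used for both glutamate and proline and FARSA for phenylalanine. The ratio of mitochondrial to cytosolic RPKM does not depend on the scaling of a library. It was higher in every PELP1-KD library than in any control library for histidine, isoleucine, leucine, proline, serine and tyrosine. It was lower in every PELP1-KD library for alanine, cysteine, methionine, asparagine and arginine, and it overlapped for glutamate, phenylalanine, threonine and tryptophan. The exact permutation test (two-sided) gave p = 0.1 for each of the 11 ratios without overlap, the smallest p that 3 against 3 libraries allow, and an adjusted p of 0.136 over the 15 ratios. With this test no ratio could pass a threshold of 0.05. Among single genes the groups did not overlap for 58.8% of all those tested. No such share was computed for ratios of other gene pairs.

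For proline, the ratio of PARS2 to EPRS was 6.11%, 6.89% and 7.03% in control and 8.72%, 8.59% and 9.62% in PELP1-KD libraries, a log2 difference of 0.43. For arginine, RARS2 to RARS was 32.8%, 33.7% and 32.6% in control and 25.3%, 26.0% and 26.1% in PELP1-KD libraries, a log2 difference of −0.36. For asparagine, NARS2 to NARS was 11.8%, 11.2% and 12.5% in control and 9.59%, 8.84% and 9.47% in PELP1-KD libraries, a log2 difference of −0.35. In these 3 pairs the 2 genes were called in opposite directions, where 26.8% of all genes were called in each direction.

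In 3 pairs, for cysteine, glutamate and threonine, both genes fell, and in no pair did both rise. With the replicate block HARS and LARS were also called higher (adjusted p = 0.0184 and 0.0143), so that both genes rose for histidine and leucine. The ratio of CARS2 to CARS was 96.8%, 98.5% and 90.6% in control and 83.5%, 86.1% and 86.0% in PELP1-KD libraries. That of TARS2 to TARS was 24.7%, 26.2% and 27.7% in control and 26.5%, 26.8% and 27.9% in PELP1-KD libraries, which overlapped. Without the block, a single gene was called in 7 pairs and neither in 2, where 53.6% of all genes were called in either direction. Whether these counts of pairs differ from those of other genes was not tested.

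Isoleucine was a pair whose mitochondrial enzyme exceeded the cytosolic one in RPKM, which divides by annotated exon length (3549 bases for IARS2, 4576 for IARS). In mean normalized reads IARS exceeded IARS2 in control (8548 against 7674) but not in PELP1-KD libraries (7088 against 7505). The ratio of IARS2 to IARS was 117%, 115% and 116% in control and 135%, 138% and 137% in PELP1-KD libraries, a log2 difference of 0.24. IARS fell while IARS2 had −0.03. For serine the ratio of SARS2 to SARS went from 155%, 157% and 161% to 197%, 172% and 221%, where the annotated exons of SARS, 6306 bases in all, enter as a length that lowers its RPKM. For histidine the ratio of HARS2 to HARS went from 47.7%, 51.7% and 49.2% to 55.9%, 61.5% and 61.3%.

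**Figure D4:**
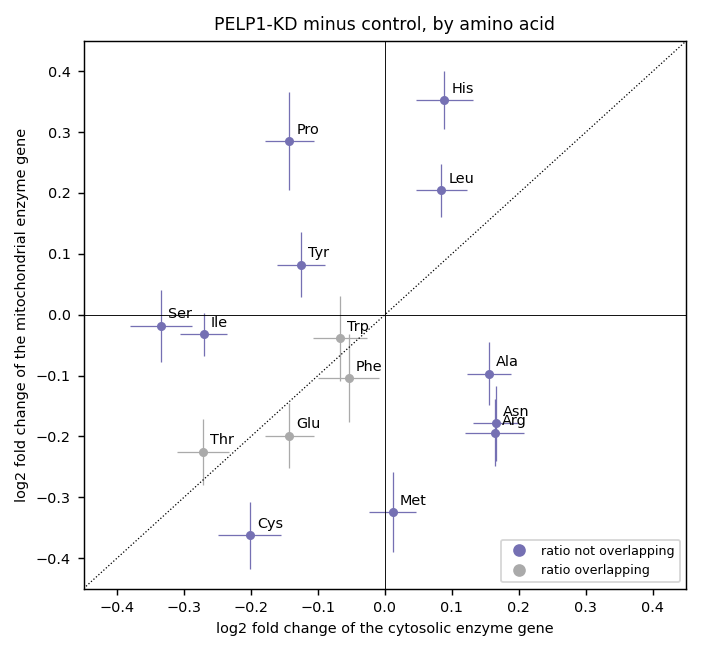
Log2 fold change, PELP1-KD minus control, of the cytosolic (x axis) and the mitochondrial (y axis) enzyme gene for 15 amino acids; bars are standard errors, the dotted line marks equal change, and grey marks pairs whose ratio overlapped between groups. Proline (−0.14 and 0.29), asparagine (0.17 and −0.18) and arginine (0.16 and −0.19) lie in the quadrants of opposite change.

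Several members lie among neighbours that moved the same way, and others do not. For comparison, 26.8% of all tested genes were called lower and 26.8% higher. Within 1 Mb of CARS on chromosome 11, 12 of 18 other tested genes were called lower and none higher by edgeR, with a median log2 fold change of −0.34, beside −0.20 for CARS. Around TARS2 on chromosome 1, 29 of 54 genes were lower and 3 higher, with a median of −0.19. Around EARS2, 6 of 10 genes were lower and 0 higher (median −0.16). Lower genes were 3 of 9 around RARS2 (median −0.15) and 4 of 11 around MARS2 (median −0.06), with 0 higher around either. Around AARS2 on chromosome 6, 19 of 23 genes were lower and 1 higher, with a median of −0.44, although AARS2 had −0.10 and was not called.

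Around PARS2, 2 of 23 genes were lower and 11 higher, with a median of 0.29, the same as PARS2 itself. CARS2 differed, since 2 of its 8 neighbours were lower and 3 higher, with a median of 0.03. Of 239 tested genes on chromosome 13, 96 were lower and 53 higher, where 26.8% of all genes were called in each direction. Their median was −0.05, beside −0.36 for CARS2. The neighbours of SARS, GARS and IARS had medians of −0.03, −0.01 and −0.02, and those of KARS and HARS2 had 0.05 and 0.13. EPRS and NARS2 fell among neighbours that went the other way. Around EPRS 0 of 10 genes were lower and 4 higher (median 0.14), and around NARS2 1 of 13 was lower and 6 higher (0.12). The part of the neighbourhood in any member's change was not tested.

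Exons of 5 members overlap a gene on the opposite strand. These are MARS with DDIT3 (68 bases), YARS with S100PBP (115), SARS2 with MRPS12 (189), AIMP1 with TBCK (383) and AIMP2 with EIF2AK1 (532). The counts were made by strand, and no member shared exon bases with a gene on its own strand.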

How the data were processed

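RNA-seq of 3 control and 3 PELP1-KD Hep3B libraries was analysed, grouped by their labels. The authors deposited estimated counts per gene, not normalized, from featureCounts 1.5.0-p1 (by strand, mapping quality at least 2, reads at several places or genes shared as fractions, UCSC hg19 genes), per the file headers. The submitters' processing notes name HISAT2 whereas the methods name TopHat2 and HTSeq. Sources also differ on RNA extraction, library kit and read layout. Shared fractions and the limit on mapping quality make genes with near-identical copies less certain.

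Counts were rounded. Genes passing filterByExpr (14537) were fitted with edgeR 4.0.16 in R 4.3.3 (TMM, glmQLFit with robust estimation, glmQLFTest, Benjamini-Hochberg over all tested genes, threshold 0.05). The SE of a log2 fold change is its size divided by the root of the F statistic (median 0.0632). Pair ratios were compared by exact permutation (scipy 1.17.1). The fit was tested on simulated counts.

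1 member gene of the rule and 1 cell type marker are not reported here. The members and lists were chosen with earlier results of these data known. Values per library are given for the 3 members with the smallest p in each direction among cytosolic and among mitochondrial genes, for AIMP1, AIMP2, AARSD1 and TARSL2, and would have been for called members with a log2 fold change of at least 0.5, of which there was none. VARS, VARS2 and the pairs shown were added after their values were seen. Up to 3 genes per list were named by smallest p, besides ATF4, EEF1E1 and the amidotransferase genes.

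Alternatives were DESeq2 1.42.0, edgeR with DESeq2's size factors or with upper-quartile normalization, no filter on low counts, a minimum of 10 reads in every library, a block for the replicate number, and omission of each library in turn. Leaving out VARS or VARS2 was chosen after seeing the data. The replicate numbers, which come from the labels, were checked for pairing. Same-numbered libraries deviated together, with correlations of 0.336, 0.247 and 0.666 over 6370 genes with a log2 CPM above 5. Control 2 with PELP1-KD 1 had 0.418, and control 1 with PELP1-KD 2 had 0.244. The check thus set replicate 3 apart but did not tell whether replicates 1 and 2 pair by number. Replicates differed by more than sampling noise (chi-square per degree of freedom 1.94 to 7.02).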

Additional observations from a re-analysis of the deposited data

How the results depend on the processing

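Of the 22 called members, 20 kept direction and call under all 12 alternatives, and all 22 kept them under the 6 that use every library. The exceptions NARS2 and RARS2 lost the call without single libraries. The median log2 fold change of all genes was 0.004 in the main fit and 0.0 to 0.009 under the alternatives. With the replicate block, 7 cytosolic genes were called higher instead of 4, the PELP1 change was −0.083 (adjusted p = 0.0106), and LARS, QARS and HARS were called. The block changed no other member's call. Leaving out 1 library, PELP1 ranged from −0.105 to −0.040, and 5 to 6 mitochondrial genes were called lower. Members near 0 changed sign, over these ranges: AIMP2 −0.0051 to 0.0504, DARS −0.0552 to 0.0044, MARS −0.0186 to 0.0282, SARS2 −0.1017 to 0.0250, WARS2 −0.0638 to 0.0013 and VARS2 −0.164 to 0.153. VARS2 was also −0.0048 with DESeq2, −0.0026 with its size factors, −0.0046 with a minimum of 10 reads per library and −0.0032 with upper-quartile normalization. The cause was not tested. Leaving out VARS or VARS2 left every count of calls as it was. With 3 libraries a group, the median SE of 0.0632 limits how small a change could be called.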

Other observations

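Steps next to the synthetases changed in single genes. Of 22 tested genes of tRNA handling (processing, modification, export and selenocysteine tRNA), 3 fell and 5 rose, where 26.8% of all genes did so in each direction. SEPHS2, which makes the selenium donor for selenocysteine tRNA, fell to 60.9% of control (log2 fold change −0.72, edgeR adjusted p = 1.24e-12). XPOT, the tRNA exporter, fell to 85.3% (−0.23, edgeR adjusted p = 4.48e-05), and CLP1, a kinase of the tRNA splicing complex, rose to 123% (0.30, edgeR adjusted p = 1.03e-05).

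Of the 6 cytosolic elongation factor genes 4 fell and none rose, where 26.8% of all genes did so in each direction. EEF1A2, a tissue-restricted factor that delivers charged tRNA to the ribosome, had 1617, 1525 and 1606 normalized reads in control and 358, 377 and 454 in PELP1-KD libraries, or 25.1% of control (−1.99 ± 0.070, edgeR adjusted p = 7.9e-15). EEF2, the translocation factor, fell by 0.26, and EEF1B2, an exchange factor, by 0.15. Of 21 mitochondrial translation genes 5 fell and 4 rose, below the 26.8% of all genes in each direction. MTIF3, an initiation factor, fell to 57.4% (−0.80) and GFM1, an elongation factor, to 77.8% (−0.36), while the initiation factor MTIF2 rose to 121% (0.28).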
